A study of Mus musculus with 4 samples.

Results

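The matrix metalloproteinases (MMPs), the ADAM and ADAMTS proteases, the ADAMTS-like proteins and the tissue inhibitors of metalloproteinases (TIMPs) were examined in mature fat cells of the skin and of the groin. Members were chosen by gene symbol alone. The symbols Mmp, Adam and Adamts followed by a number, Adamtsl followed by 1 digit, and Timp1 to Timp4 matched 71 of the 18781 genes in the table, namely 16 Mmp, 27 Adam, 19 Adamts, 5 Adamtsl and 4 Timp genes. RNA was sequenced from dermal adipocytes of the dorsal skin (2 libraries) and from adipocytes of the inguinal fat pad (2 libraries), taken from C57BL/6 mice, an inbred strain, at postnatal day 30. No genotype other than the strain and no treatment is given in the labels for either group, and fat cells were floated off after enzymatic digestion of the tissue (collagenase IV, dispase II). Whether the 2 libraries of a depot came from different mice is not in the labels, and p-values therefore cover only library-to-library spread, possibly technical.

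MMPs are zinc-dependent enzymes that cut collagens, gelatins and other matrix proteins, and most are secreted as inactive precursors. ADAMs are membrane-bound relatives that release growth factors, cytokines and receptors from the cell surface, whereas ADAMTS enzymes are secreted and cut proteoglycans, procollagens and other matrix proteins. ADAMTS-like proteins share the accessory domains of ADAMTS enzymes but lack the catalytic one. TIMPs bind the active site of these enzymes, and in adipose tissue the balance of proteases and inhibitors is known to accompany remodelling of the matrix and of vessels.

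The libraries held 10127125 to 12730013 reads assigned to genes. Levels are given as normalized CPM, read counts scaled to an effective library size, and 1 read was worth 0.0844 to 0.0969 CPM. Genes with at least 1 CPM in at least 2 libraries were tested with limma on log2(CPM + 0.5), with Benjamini-Hochberg adjustment of p over all 12797 genes tested. A gene passed when its adjusted p was below 0.05. A positive log2 fold change means higher in dermal libraries, and this scale understates the change of low genes. Of 10 adipocyte markers all were detected in every library, with Adipoq, which encodes adiponectin, at 3745, 3964, 3324 and 2965 CPM (dermal replicates 1 and 2, then inguinal replicates 1 and 2, the order used throughout).

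Markers of other cells were present as well, and in bulk libraries fewer cells of a type and less RNA per cell cannot be told apart. All 10 endothelial markers were higher in inguinal libraries, and their summed CPM ranged from 403 to 459 in dermal libraries and from 1461 to 2278 in inguinal libraries. Among 10 pericyte and smooth muscle markers, inguinal libraries were higher for 8 and dermal libraries for 1 (350 to 355 against 476 to 621 summed CPM). Of 11 macrophage markers 9 were higher in dermal libraries (1626 to 1718 against 586 to 623 CPM summed). Of 6 tested keratinocyte markers 4 were higher in dermal libraries (53.9 to 84.4 against 19.1 to 26.4 summed CPM), and Krt10 and Sfn did not pass. Trp63 alone held 21.2 and 14.2 CPM of the inguinal sums, whereas Krt5 and Krt15 were each at 0.0844 and 0 CPM there. Also higher in dermal libraries were all 3 tested hair follicle markers (61.6 and 11.7 against 1.10 and 1.65 summed CPM) and 3 of 5 tested mast cell markers (67.5 and 202 against 40.4 and 46.0 summed CPM). Another mast cell marker, Kit, was higher in inguinal libraries. The 12 fibroblast and progenitor markers had summed CPM of 6628 and 14277 in the dermal pair and 4078 and 6839 in the inguinal pair, with 2 of them, Dpt and Thy1, higher in dermal libraries. None of the endothelial, pericyte, macrophage or fibroblast markers in the table was at 0 reads in either depot, and among keratinocyte markers Krtdap had no read in dermal libraries.

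The families did not move as blocks, and close relatives differed in opposite directions. Of the 49 members that were tested, 10 were higher in dermal libraries (20.4% of them, against 7.56% of all genes tested) and 8 were higher in inguinal libraries (16.3%, against 8.8%). Together 18 passed (36.7%, against 16.4%). Dermal libraries carried higher levels of Adam33, Adamts5, Adamts2, Adamtsl4, Adam8, Mmp28, Mmp9, Adamts10, Adamts18 and Adamts19. The last 2, Adamts18 and Adamts19, met the expression filter through the dermal libraries alone. Their direction was therefore fixed by the filter, and the counts and shares above include them. Inguinal libraries carried higher levels of Adamts1, Adamts4, Timp3, Mmp3, Adam22, Adamtsl3, Timp1 and Adamts9. The median log2 fold change of the tested members was 0.22, against 0.02 over all genes tested. Libraries did not overlap between depots for 31 of the 49 (63.3%), a share near the 61.8% of all genes tested. Both dermal libraries lay above in 18 of the 49, and among all genes tested this held for 31.6%. Both inguinal libraries lay above in 13 of the 49, and among all genes tested this held for 30.1%. Without dermal replicate 1 the count of members higher in dermal libraries was 5, and without dermal replicate 2 it was 6, and without dermal replicate 2 the count higher in inguinal libraries was 5.

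**Figure D1:**
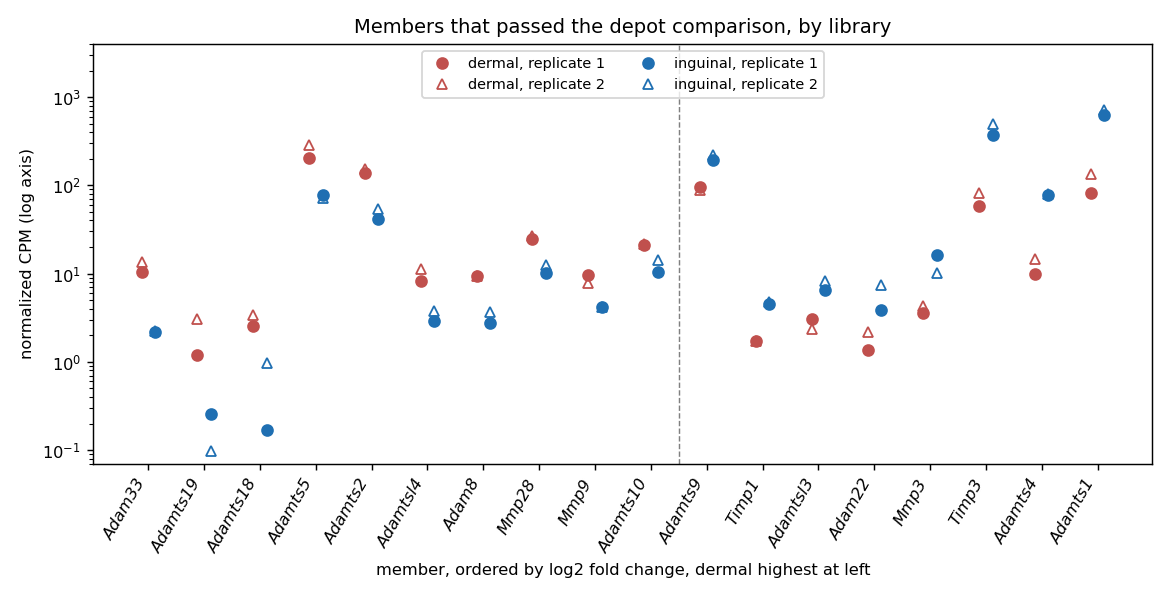
Normalized CPM (log axis) of the 18 members that passed, with 1 point per library, dermal in red and inguinal in blue, filled circles for replicate 1 and open triangles for replicate 2. Members left of the dashed line were higher in dermal libraries and those right of it in inguinal libraries, and for each of them the points of the depots do not overlap.

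The ADAMTS proteoglycanases, which cut the large proteoglycans versican and aggrecan, held members with large differences in opposite directions. Adamts1, a proteoglycanase that also binds VEGF, measured 82.7, 134, 625 and 719 CPM. The inguinal libraries were both above the dermal ones, with means of 672 ± 66.3 against 108 ± 36.0 CPM (SD, n = 2 per depot), a 6.22-fold difference (log2 fold change -2.67, SE 0.23, limma adjusted p = 0.00211). Adamts5, the main aggrecanase of mouse cartilage, went the other way, at 204, 286, 76.9 and 72.2 CPM. Its dermal libraries were 3.29-fold higher on the means (log2 fold change 1.69, SE 0.18, limma adjusted p = 0.00342). The 2 genes are neighbours on the minus strand of chromosome 16 in GRCm38 (mm10), Adamts1 at 85793827 to 85803113 and Adamts5 at 85856173 to 85901828, with 53.1 kb and no annotated protein-coding gene between them. The ratio of Adamts1 to Adamts5 CPM was 0.405 and 0.467 in dermal and 8.13 and 9.96 in inguinal libraries.

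Adamts4, another aggrecanase, had the same direction as Adamts1. It measured 10.01, 14.6, 78.4 and 80.1 CPM, a 6.44-fold higher mean in inguinal libraries (log2 fold change -2.66, SE 0.20, limma adjusted p = 0.00166). It lies on chromosome 1, 171250421 to 171260637. Adamts9, which cuts versican, measured 96.1, 88.5, 193 and 220 CPM, with both inguinal libraries above the dermal ones (log2 fold change -1.16, SE 0.13, limma adjusted p = 0.00389). Adamts15 (34.0, 27.1, 25.7 and 29.9 CPM) and Adamts20 (0.776 to 1.64 CPM) overlapped between depots and did not pass, with adjusted p of 0.654 and 0.735. Adamts8 had 3 reads in dermal and 19 in inguinal libraries and fell below the filter.

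The summed CPM of the 7 proteoglycanases was 429 and 551 in dermal and 1001 and 1123 in inguinal libraries. Within that sum Adamts5 took 47.6% and 51.9% in dermal libraries and 7.68% and 6.43% in inguinal libraries. Adamts1 took 19.3% and 24.2% in dermal libraries, against 62.5% and 64.0% in inguinal libraries. Longer transcripts weigh more in such sums, so they describe each library and not the number of transcripts. Per kb of exon, Adamts1 had the highest level of all members in inguinal libraries, at 127 CPM per kb, and the fourth highest in dermal libraries, at 20.4 CPM per kb, where Adam9 led at 40.3 CPM per kb. Endothelial and pericyte markers were higher in the same libraries as Adamts1, Adamts4 and Adamts9, and their part in these differences was not tested.

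**Figure D2:**
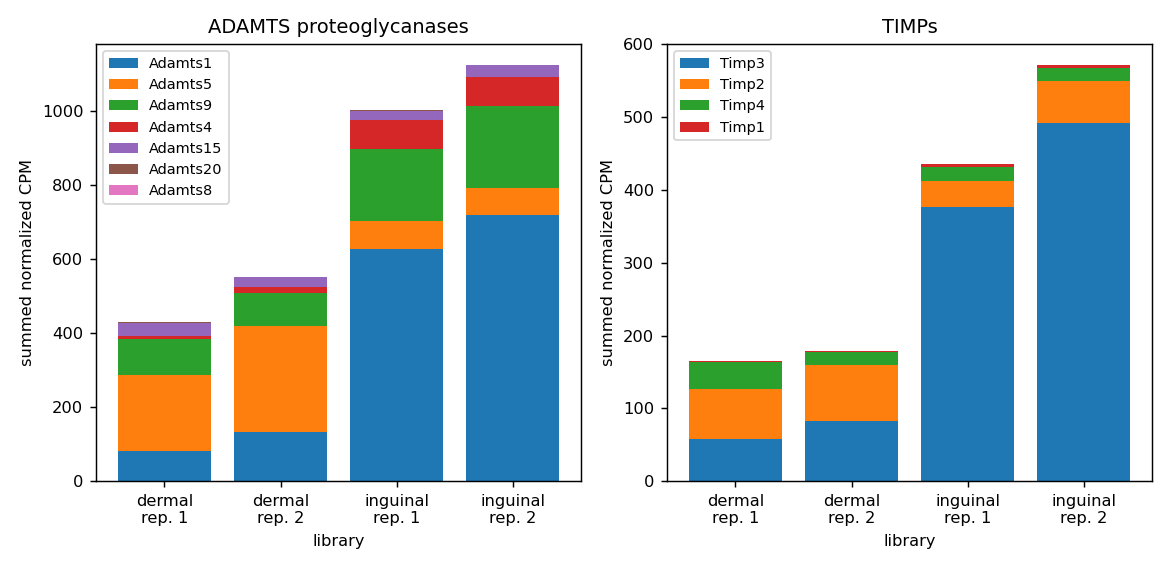
Summed normalized CPM in each library, stacked by gene, for the 7 ADAMTS proteoglycanases (left) and the 4 TIMPs (right), on axes that start at 0. Adamts5 is the widest segment of the left bars in dermal libraries and Adamts1 in inguinal libraries, and Timp3 makes up 35.4% and 45.8% of the right bars in dermal and 86.3% and 86.0% in inguinal libraries.

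Of the 4 TIMPs 2 passed, both as higher in inguinal libraries. Timp3, the inhibitor that stays bound to the matrix and also blocks ADAM17 and the aggrecanases, measured 58.6, 82.1, 376 and 491 CPM. Both inguinal libraries lay above the dermal ones, a 6.16-fold difference of the means (434 ± 81.6 against 70.3 ± 16.6 CPM, SD, n = 2 per depot, log2 fold change -2.62, SE 0.21, limma adjusted p = 0.00178). All 10 endothelial markers were higher in the same libraries, as were 8 of 10 pericyte and smooth muscle markers, with 1 the other way. The part of these cells in the TIMP differences was not tested. Timp1, a secreted inhibitor that is induced in inflammation, measured 1.73, 1.71, 4.56 and 4.75 CPM and was also higher in inguinal libraries (log2 fold change -1.22, SE 0.24, limma adjusted p = 0.0222). It did not pass with DESeq2 (adjusted p = 0.0535), nor without dermal replicate 1 (0.0958) or dermal replicate 2 (0.0982). Timp2, which takes part in the activation of MMP2 by MMP14, measured 67.7, 77.4, 35.9 and 58.5 CPM. Its dermal libraries were both above the inguinal ones without passing (log2 fold change 0.65, adjusted p = 0.112), and it passed without inguinal replicate 2 (adjusted p = 0.0021). Timp4 measured 37.3, 17.8, 19.2 and 17.1 CPM, with dermal replicate 1 standing apart and the other 3 libraries close together (adjusted p = 0.341).

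Each of Timp1, Timp3 and Timp4 lies within a synapsin gene on the opposite strand, an arrangement known in mammals. Exons overlap for Timp3 with Syn3 and for Timp4 with Syn2. Syn3 averaged 1.49 ± 0.438 against 0.985 ± 0.159 CPM (dermal, then inguinal) and Syn2 12.6 ± 3.92 against 11.4 ± 2.77 CPM, and neither passed. Syn1, the host of Timp1, was at 0.273 and 0.285 CPM in dermal libraries and had no read in inguinal libraries. Per kb of exon, Timp3 was at 8.64 in the dermal and 53.2 in the inguinal mean, Timp2 at 18.6 and 12.1 and Timp1 at 1.94 and 5.24 (CPM per kb).

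**Figure D3:**
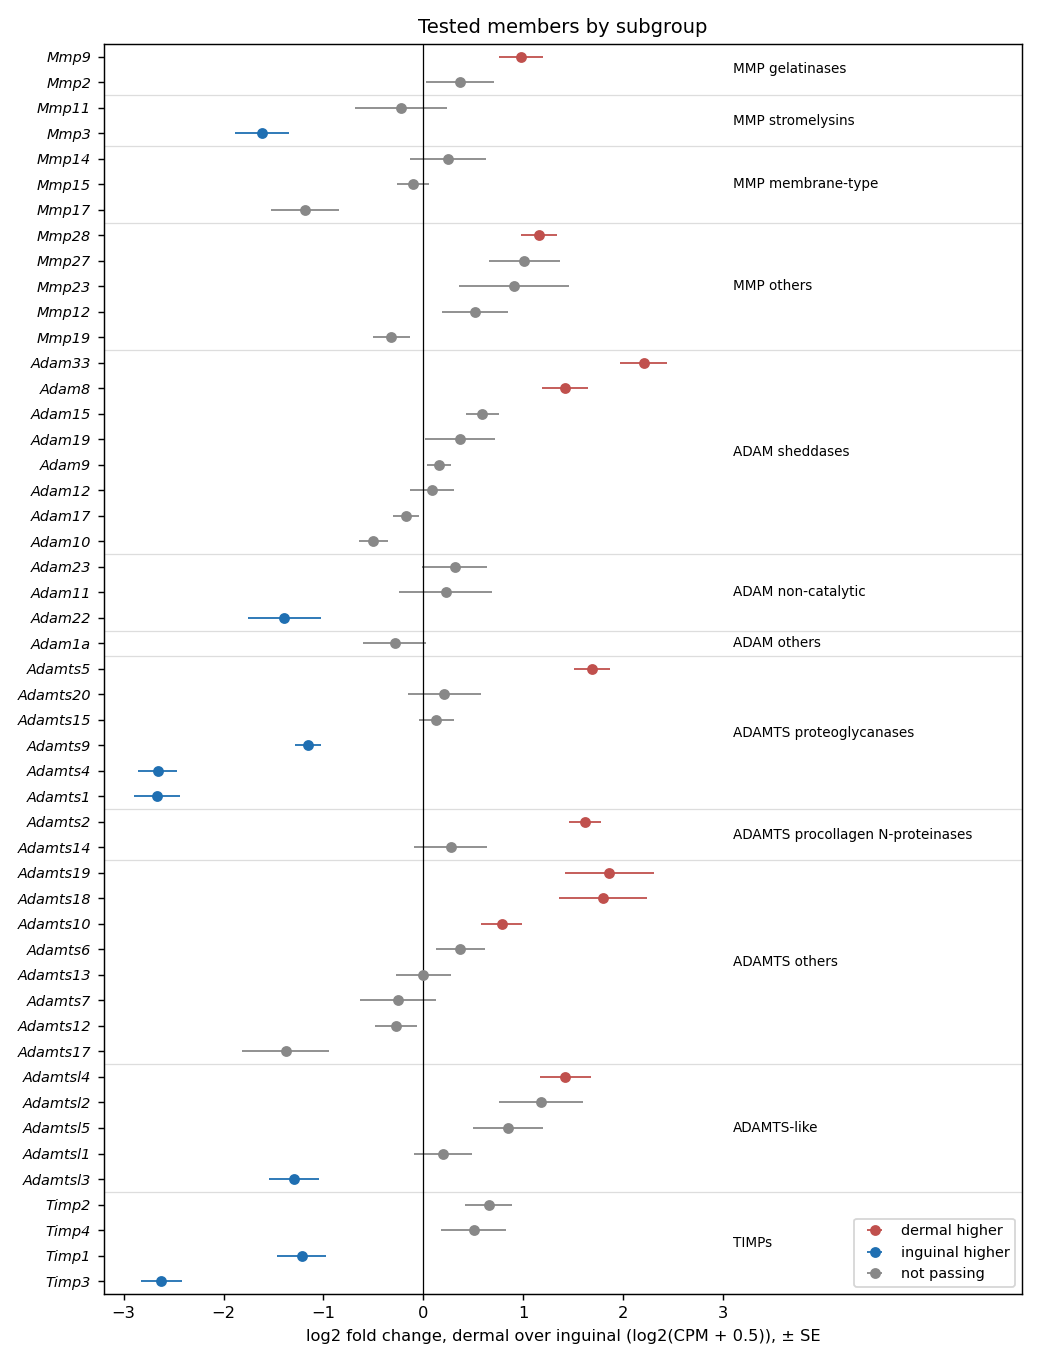
Log2 fold change, dermal over inguinal, of the 49 tested members with its standard error, grouped by subgroup. Red points passed as higher in dermal libraries, blue points as higher in inguinal libraries and grey points did not pass; points of both colours stand among the proteoglycanases and in the ADAMTS-like group.

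Among ADAMTS enzymes outside the proteoglycanases, Adamts2 and Adamts10 passed as higher in dermal libraries, and Adamts18 and Adamts19 passed after meeting the expression filter through the dermal libraries alone. Adamts2, the main enzyme that removes the amino-terminal propeptide of fibrillar procollagens, measured 140, 152, 41.5 and 53.9 CPM. Its dermal mean was 3.06-fold higher (log2 fold change 1.62, SE 0.16, limma adjusted p = 0.00293), and its position is chromosome 11, 50602084 to 50807573. Of its substrates, Col1a1 (528, 1524, 159 and 382 CPM) and Col1a2 (1052, 2997, 452 and 970 CPM) had both dermal libraries above the inguinal ones and did not pass (adjusted p = 0.0733 and 0.126). Col3a1, at 3871, 8179, 2741 and 4547 CPM, overlapped between depots (adjusted p = 0.312). Adamts14, a related procollagen enzyme, was at 1.35 to 2.75 CPM and did not pass, and Adamts3 was below the filter.

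Adamts10, which binds fibrillin microfibrils, measured 21.2, 21.6, 10.3 and 14.4 CPM (log2 fold change 0.79, limma adjusted p = 0.0474). The Adamts10 call was lost under 8 of 14 alternatives, among them edgeR (adjusted p = 0.0525) and DESeq2 (0.0581). Adamts18 had 64 reads in dermal and 12 in inguinal libraries (log2 fold change 1.80, adjusted p = 0.0396). The Adamts18 call was kept in 7 of the 11 alternatives that gave a value. Among those that lost it were a pseudocount of 0.1, no filter and edgeR (log2 fold change 2.41, adjusted p = 0.0521). Without inguinal replicate 1 its log2 fold change was 1.23, and the fits without a dermal library gave no value. Adamts19 had 45 reads in dermal and 4 in inguinal libraries (log2 fold change 1.86, adjusted p = 0.0375). Its estimate ranged from 1.34 to 3.55 over the 11 alternatives that gave a value, and the fits without a dermal library gave none. Adamts18 and Adamts19 met the expression filter through the dermal libraries alone. Mmp17, at 0.182, 0.285, 1.27 and 1.07 CPM, met it through the inguinal libraries alone (adjusted p = 0.0642). These 3 therefore had to differ, and the 10 members higher in dermal libraries include Adamts18 and Adamts19 on this footing. Mmp17 passed with no filter, with no intensity trend, with edgeR, with quantile normalization and under the replicate block. Adamts12, which cuts cartilage oligomeric matrix protein, measured 139, 175, 157 and 227 CPM and did not pass (adjusted p = 0.419). Adamts17 measured 0.819, 1.04, 1.94 and 5.14 CPM, with both inguinal libraries above the dermal ones without passing (log2 fold change -1.38, limma adjusted p = 0.0815). Adamts6, Adamts7 and Adamts13 stayed between 2.36 and 8.92 CPM without passing, and Adamts16 was below the filter.

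Of the 5 ADAMTS-like genes, 1 passed in each direction. Adamtsl4, which promotes fibrillin fibre formation, measured 8.28, 11.3, 2.87 and 3.78 CPM (log2 fold change 1.42, SE 0.26, limma adjusted p = 0.0161). Adamtsl3 measured 3.09, 2.37, 6.59 and 8.24 CPM (log2 fold change -1.29, SE 0.25, limma adjusted p = 0.0200). Without dermal replicate 2 the call of each was lost, with adjusted p of 0.0883 for Adamtsl4 and 0.0929 for Adamtsl3. Adamtsl2 (5.37, 2.09, 1.18 and 1.26 CPM), Adamtsl5 (3.37, 3.42, 1.10 and 2.42 CPM) and Adamtsl1 (4.48 to 7.66 CPM) did not pass.

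The start regions of 3 members that passed are shown to set 2 members higher in inguinal libraries beside 1 higher in dermal libraries. Sequences are RefSeq promoter windows of GRCm38.p6, up to 250 bases before the start on the gene's own strand and ending before the annotated gene. Capitals mark 3 motifs, searched on both strands. The AP-1 motif was spelled TGANTCA with N as any base, so the search also counted words other than TGAGTCA and TGACTCA. The letters of the TATA box were TATAAA. For the GC box they were GGGCGG, and it did not overlap the others in the windows shown. Adamts1 lies at chr16:85803114-85803363 (minus strand), Mmp3 at chr9:7445572-7445821 (plus strand) and Adamts2 at chr11:50601835-50602083 (plus strand).
Adamts1: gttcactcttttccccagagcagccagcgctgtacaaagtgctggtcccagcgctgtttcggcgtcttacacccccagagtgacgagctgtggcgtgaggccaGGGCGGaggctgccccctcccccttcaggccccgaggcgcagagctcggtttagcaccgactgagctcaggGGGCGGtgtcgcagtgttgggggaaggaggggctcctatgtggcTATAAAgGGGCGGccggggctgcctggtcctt
Mmp3: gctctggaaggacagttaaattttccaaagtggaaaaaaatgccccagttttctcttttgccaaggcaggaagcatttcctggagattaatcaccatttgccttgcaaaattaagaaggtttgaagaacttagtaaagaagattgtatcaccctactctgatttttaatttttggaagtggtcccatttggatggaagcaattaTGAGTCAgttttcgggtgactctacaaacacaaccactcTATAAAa
Adamts2: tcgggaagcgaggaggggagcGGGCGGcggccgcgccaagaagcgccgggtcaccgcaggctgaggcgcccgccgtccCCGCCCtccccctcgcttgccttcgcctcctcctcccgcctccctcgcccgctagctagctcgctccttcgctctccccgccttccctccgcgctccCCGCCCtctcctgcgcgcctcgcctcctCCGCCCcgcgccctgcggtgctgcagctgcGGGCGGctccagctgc
In these windows Adamts1 held TATAAA, with its first base 32 bases before the start, and 3 GC boxes. Mmp3 held TGANTCA at 46 bases and TATAAA at 7 bases before the start and no GC box. Adamts2 held 5 GC boxes and neither of the others. Of 40 members with a window, 4 held TGANTCA (10%, against 7.82% of all genes with a window), and these were Mmp3, Mmp12, Mmp13 and Adam19. TATAAA was in 5 of the 40 (12.5%, against 14.3%) and GGGCGG in 23 (57.5%, against 35.4%). Among tested members with a window, of which there were 33, GGGCGG was in 21 (63.6%), the same share as in all tested genes with a window (63.6%). TATAAA and TGANTCA were each in 3 of the 33 (9.09%), against 8.13% and 5.63% of those genes. Of 7 members higher in inguinal libraries with a window, 5 held GGGCGG, 2 TATAAA (both shown) and 1 TGANTCA (Mmp3). Of 5 members higher in dermal libraries with a window, all 5 held GGGCGG and none held the other motifs. The 2 inguinal windows shown are therefore not typical of that group. The 7 AP-1 subunit genes encode proteins that bind the forms of TGANTCA with G or C at N. Of them Fos (280, 371, 948 and 1103 CPM), Fosb and Fosl1 were higher in inguinal libraries (limma adjusted p = 0.00348, 0.00156 and 0.00277). Fosl2, Jun, Junb and Jund did not pass. A match of letters is a description and not a site of binding.

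Among MMPs, 3 passed, of which Mmp9 and Mmp28 favoured dermal and Mmp3 inguinal libraries. Mmp3, stromelysin 1, cuts proteoglycans and activates other MMPs, and measured 3.55, 4.27, 16.3 and 10.3 CPM. Both inguinal libraries were above the dermal ones, with a 3.40-fold difference of the means (log2 fold change -1.61, SE 0.27, limma adjusted p = 0.0133). Mmp3 lies on chromosome 9 (7445822 to 7455975) in a cluster with Mmp13, Mmp12, Mmp8 and Mmp27. The 2 tested neighbours had estimates of the other sign. Mmp27 (2.37, 4.65, 1.27 and 1.55 CPM) and Mmp12, the macrophage elastase (2.003, 1.33, 0.844 and 1.16 CPM), had both dermal libraries above the inguinal ones without passing (log2 fold changes 1.01 and 0.52, adjusted p = 0.105 and 0.327). Mmp13, a collagenase, had 16 reads in dermal and 4 in inguinal libraries, and Mmp8, the neutrophil collagenase, was at 0.0910 to 0.253 CPM, both below the filter.

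Mmp28, or epilysin, a secreted MMP known from skin, measured 24.7, 26.8, 10.05 and 12.6 CPM (2.27-fold, log2 fold change 1.16, SE 0.18, limma adjusted p = 0.0102). Leaving out dermal replicate 2 ended the Mmp28 call (adjusted p = 0.0518). Mmp9, gelatinase B, measured 9.74, 7.87, 4.22 and 4.17 CPM (2.10-fold, log2 fold change 0.98, SE 0.22, limma adjusted p = 0.0293). It did not pass with DESeq2 (adjusted p = 0.0568), with no filter (0.0619), without dermal replicate 1 (0.207) or without dermal replicate 2 (0.0843). Macrophages express Mmp9, and their markers were higher in the same libraries at the levels given above. The 7 neutrophil markers in the table had summed CPM of 6.74 and 11.7 in the dermal pair and 5.07 and 4.07 in the inguinal pair. Of the 4 tested, only Camp passed, as higher in dermal libraries (2.28, 7.12, 0.169 and 0 CPM). The difference between these sums rests on Camp alone. The other 3 did not pass, and Cxcr2 among them had both inguinal libraries above the dermal ones. Ltf and Mpo were at 0 reads in dermal libraries. The part of these cells in the Mmp9 difference was not tested.

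Mmp2, gelatinase A, was more abundant than Mmp9 per kb of exon (19.6 against 2.49 CPM per kb in dermal libraries). It measured 44.9, 87.5, 38.9 and 60.3 CPM, with the depots overlapping, and did not pass (log2 fold change 0.37, adjusted p = 0.506). Its activator Mmp14, the main membrane-type MMP, measured 18.2, 34.0, 15.1 and 28.9 CPM, also with overlapping depots (adjusted p = 0.702). Mmp19 had the highest level per kb of the MMPs, at 26.6 (dermal mean) and 33.4 CPM per kb (inguinal mean). It measured 103, 85.1, 135 and 101 CPM and did not pass (log2 fold change -0.32, adjusted p = 0.276). Mmp15, a membrane-type MMP, measured 18.9, 19.9, 19.4 and 22.5 CPM and did not pass. Mmp11 and Mmp23 lay between 0.844 and 5.41 CPM without passing, and Mmp16 and Mmp25 were below the filter. Exons of Mmp11 overlap Chchd10 on the opposite strand, a mitochondrial protein gene that was higher in inguinal libraries (log2 fold change -1.20, limma adjusted p = 0.00301).

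Most of the tested ADAM sheddases did not pass. Adam9, a sheddase expressed in many tissues, measured 158, 174, 149 and 148 CPM (log2 fold change 0.16, adjusted p = 0.425). Adam17, which releases TNF and ligands of the EGF receptor, measured 70.3, 79.9, 81.7 and 87.3 CPM (log2 fold change -0.17, adjusted p = 0.421). Adam10, the sheddase of Notch receptors, measured 65.1, 66.6, 84.2 and 103 CPM, with both inguinal libraries above the dermal ones and an adjusted p of 0.0653. Adam15 measured 93.9, 95.6, 54.3 and 72.4 CPM, with both dermal libraries above and an adjusted p of 0.0589, and it passed with quantile normalization. Adam12, known from fat and muscle development, measured 147, 226, 159 and 187 CPM, with overlapping depots (adjusted p = 0.820), and Adam19 stayed between 10.8 and 24.4 CPM (adjusted p = 0.517).

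The 2 sheddases that passed were higher in dermal libraries. Adam33, which is expressed in mesenchymal cells, measured 10.6, 13.7, 2.20 and 2.23 CPM. Its dermal mean was 5.47-fold higher (12.1 ± 2.19 against 2.21 ± 0.0242 CPM, SD, n = 2 per depot, log2 fold change 2.21, SE 0.23, limma adjusted p = 0.00328). Adam8, which is expressed in myeloid cells, measured 9.47, 9.39, 2.79 and 3.68 CPM (2.91-fold, log2 fold change 1.42, SE 0.23, limma adjusted p = 0.0114), a call that ended when dermal replicate 1 was left out (adjusted p = 0.0515). The macrophage markers, higher in the same libraries, had a median log2 fold change of 1.57, and their part in the Adam8 difference was not tested. Adam28 was below the filter.

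Adam11, Adam22 and Adam23 encode ADAMs without an active protease site, which bind LGI proteins on neurons. Adam22 measured 1.37, 2.18, 3.88 and 7.37 CPM (log2 fold change -1.39, SE 0.37, limma adjusted p = 0.0484). This call was lost under 7 of 13 alternatives, among them edgeR (adjusted p = 0.0501) and each of the fits without dermal replicate 1 (0.180), dermal replicate 2 (0.0578) and inguinal replicate 2 (0.121). Adam23 measured 23.8, 48.6, 24.6 and 30.2 CPM and Adam11 stayed between 0.338 and 1.27 CPM, and neither passed. Of 5 Schwann cell markers, 4 were tested and 1, Cdh19, was higher in inguinal libraries. The 15 remaining ADAMs, several of which are known from the testis, summed to 3.12 to 3.59 CPM per library. Adam1a alone of these was tested and did not pass (adjusted p = 0.579). The other 14 did not reach the filter, with at most 1.14 CPM, for Adam5 in dermal replicate 2.

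Many members differed between the 2 libraries of a depot in a shared way. In 30 of the 49 tested members (61.2%) replicate 2 was above replicate 1 in both depots, against 35.3% of all genes tested, and in 5 members (10.2%) replicate 1 was above replicate 2 in both, against 30.3%. The ratio of replicate 2 to replicate 1 was 1.95 in dermal and 1.55 in inguinal libraries for Mmp2, 1.87 and 1.91 for Mmp14, and 2.83 and 2.98 for Mmp23. Of the 12 fibroblast and progenitor markers, 10 were likewise above in replicate 2 of both depots, with Pdgfra, a receptor of mesenchymal progenitors, at 21.1, 43.0, 26.6 and 41.2 CPM. The part of these cells in the levels of Mmp2, Mmp14 and Mmp23 was not tested. The labels do not say what the replicate numbers stand for.

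**Figure D4:**
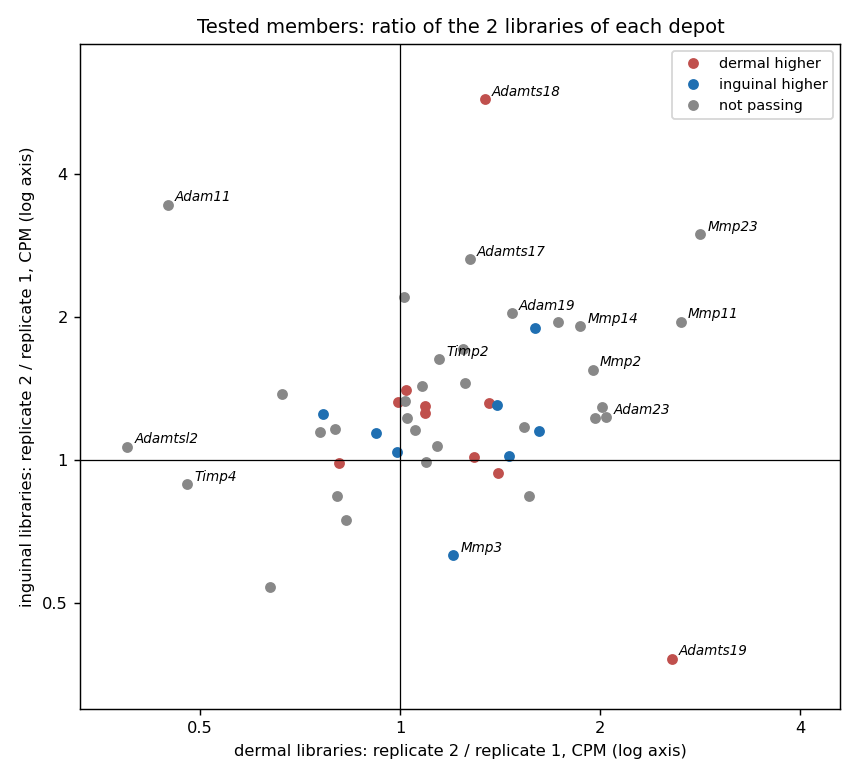
Ratio of replicate 2 to replicate 1 CPM in dermal (x axis) and inguinal libraries (y axis) for the 49 tested members, on log axes, coloured by the depot comparison. The upper right field, where replicate 2 was above replicate 1 in both depots, holds 30 members, among them Mmp2, Mmp14, Mmp11 and Mmp23.

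Genes that regulate these proteases were taken from lists of related genes. Over all genes tested, 16.4% passed, 7.56% as higher in dermal and 8.8% as higher in inguinal libraries. Of 10 tested genes for plasminogen activation and proprotein convertases, which lead to active MMPs and ADAMs, 6 passed, 5 with the higher level in inguinal libraries and 1 in dermal libraries, and the list's median log2 fold change was -0.40. The tissue-type activator Plat (4.92, 7.59, 14.8 and 24.4 CPM), the receptor Plaur, the inhibitor Serpine2 and the convertase Pcsk6 were among those higher in inguinal libraries, with log2 fold changes of -1.56, -0.93, -1.36 and -0.99. The urokinase gene Plau went the other way, at 37.3, 41.2, 17.3 and 22.8 CPM (log2 fold change 0.96, limma adjusted p = 0.0179).

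Of 20 tested genes for other regulators, 5 passed, 3 with the dermal and 2 with the inguinal libraries higher, beside 16.4% of all genes tested. Lrp1, the endocytic receptor that clears proteases and TIMPs, measured 1116, 1085, 404 and 455 CPM (log2 fold change 1.36, limma adjusted p = 0.00311). Rhbdf1, which encodes a partner of ADAM17, was higher in dermal libraries (68.8, 71.0, 28.0 and 34.8 CPM). Partners of ADAM10 split, with Tspan17 favouring dermal (log2 fold change 1.10) and Tspan15 inguinal libraries (log2 fold change -1.09), and both passed. Thbs1, encoding thrombospondin 1, measured 80.0, 98.6, 648 and 691 CPM (log2 fold change -2.91, SE 0.15, limma adjusted p = 0.000664). Of 14 other matrix proteases and their helpers, Fap, Ctss and Htra3 were higher in dermal libraries and Tll1 in inguinal libraries.

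Substrates split in a similar number each way. Of 19 tested genes for proteins that ADAMs shed, 10 passed, 5 in each direction, with a median log2 fold change of 0.16. Tnf (64.9, 64.8, 12.3 and 13.9 CPM), its receptor Tnfrsf1b, the growth factor Areg, Notch2 and the macrophage receptor Csf1r were higher in dermal libraries. Hbegf (11.8, 11.005, 23.6 and 21.5 CPM), Kitl, Jam3, F11r and Vcam1 were higher in inguinal libraries. Of 10 tested ADAMTS substrates, Vcan, which encodes versican, was higher in dermal libraries (48.9, 85.4, 26.2 and 31.7 CPM, log2 fold change 1.15, limma adjusted p = 0.0339). Vwf, an endothelial gene, and Thbs1, which stands in this list too, were higher in inguinal libraries.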

How the data were processed

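The authors deposited 1 table of signal values, CPM per gene scaled with a library total and a further factor. The file headers and the column sums of 960745 to 1074951 show this. In each library the further factor equalled the trimmed-mean (TMM) factor that edgeR gave for the recovered reads (0.930 to 1.04). The submitters' processing notes name mm10, featureCounts of Subread 1.4.6, TopHat2 2.0.12, edgeR and Picard 1.127; for the strand setting, no source used here gives a value. All values were whole multiples of 1 step within 0.001, so whole reads were recovered for 100% of values and used for edgeR 4.0.16 and DESeq2 1.42.0, run as alternatives. The main test was limma 3.58.1 (R 4.3.3) with an intensity trend on log2(CPM + 0.5), checked on simulated data. The simulated counts were independent, with the same spread setting for every gene and no effect shared by same-numbered libraries. That check therefore does not show how the test behaves where libraries share such an effect. EdgeR called 923 (dermal) and 1133 genes (inguinal), against 968 and 1126 with limma. Members and lists were chosen with earlier results of these data known. Named were all members that passed, the 2 highest of each subgroup, all TIMPs and related genes that passed (some results are not reported here); other members, AP-1 subunits, genes overlapping members and collagens were added after values were seen. Exon lengths and positions came from GENCODE M21 (GRCm38), which matched all 71 symbols, and promoters from RefSeq for 40 members.

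Depth limits low members: a level of 3 reads is 0.253 to 0.291 CPM. Exons of 16 members overlap a gene on the opposite strand, where reads may not be separable, and exons of Adam1a overlap Mapkapk5 on the same strand. Of the members that passed these were Adam8, Adamts4, Adamts9, Mmp28 and Timp3. Alternatives covered the pseudocount, filter, trend, count tests, scaling, replicate block and each library left out.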

Additional observations from a re-analysis of the deposited data

How the results depend on the processing

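With 2 libraries per depot, leaving out a dermal library removed many calls. Over the fits without 1 library, members passing numbered 5 to 14 (higher in dermal) and 5 to 10 (higher in inguinal), and all genes 305 to 1221 and 556 to 1380. A fit without a library leaves a depot with 1, assumed to vary like the other depot. Of 18 members that passed, Adam33, Adamts1, Adamts2, Adamts4, Adamts5, Adamts9, Mmp3 and Timp3 passed under all 14 alternatives. Adamts19 passed in the 11 that gave a value, none of them without a dermal library, and its direction was fixed by the filter. With the replicate number as a block (replicate block), 2342 and 2384 genes passed as higher in dermal and inguinal libraries, and 18 and 12 members. Deviations of same-numbered libraries correlated at 0.464 across genes, but with 2 pairs the numbers are not shown to pair samples. Under the block 12 of the 31 members that had not passed did so, with unchanged estimates: Adam10, Adam15, Adamts17, Adamtsl2, Adamtsl5, Mmp2, Mmp17, Mmp19, Mmp23, Mmp27, Timp2 and Timp4. With a library left out 9 of the 31 passed, Adam19 and, of those under the block, Adam10, Adam15, Adamts17, Adamtsl2, Adamtsl5, Mmp19, Timp2 and Timp4. Estimates of 15 of the 31 changed sign when a library was left out, among them Adam11, Adam19, Adamts7, Adamts13, Adamts15 and Adamts20. The others ranged over -0.22 to 0.40 (Adam12), -0.19 to 0.82 (Adam23), -0.13 to 0.67 (Adamts14), -0.16 to 0.55 (Adamtsl1), -0.78 to 0.33 (Mmp11), -0.21 to 0.70 (Mmp14), -0.21 to 1.36e-06 (Mmp15), -0.11 to 0.85 (Mmp2) and -0.0196 to 1.02 (Timp4). The cause was not tested. Scaling to the library total moved the median of all genes to 0.10.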
